A study of Mus musculus with 6 samples.

Results

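The genes described here encode the machinery that reports nutrients and growth factors to mTOR. They comprise the subunits of the mTOR complexes, the TSC complex with its target Rheb, and Rag A and Rag B. The Ragulator, GATOR1, GATOR2 and KICSTOR complexes, the amino acid sensors and 4 direct substrates of mTORC1 are also included. Members were a fixed list of 38 gene symbols. Of these, 36 were found by gene name among the 53715 rows of the expression table, and the other 2, Castor1 and Castor2, were found by gene identifier under the older names Gatsl3 and Gatsl2. The values came from 6 RNA sequencing libraries of an immortalized mouse podocyte line, a model of the epithelial cells that wrap the glomerular capillaries. In 3 libraries the cells had been transfected with siRNA against Tfeb and are labelled as a TFEB knockdown, and in 3 they had received scrambled siRNA and are labelled as wild type. All cells had been expanded at 33 °C with interferon gamma and differentiated at 37 °C for 10 to 14 days before use, so every group shares these conditions. Neither the dose and sequences of the siRNAs nor the time from transfection to harvest is given in the sources used here, and the labels do not say whether replicates were separate cultures.

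At the lysosome, amino acids switch on the Rag GTPases, which sit on the membrane through the Ragulator anchor and recruit mTORC1. GATOR1 turns RagA and RagB off, GATOR2 holds GATOR1 in check, and sestrins and CASTOR proteins bind GATOR2 when leucine or arginine is scarce. Growth factors act through TSC, which inactivates the GTPase Rheb, the direct activator of mTORC1. Active mTORC1 is known to phosphorylate TFEB and hold it in the cytoplasm, while TFEB is known to raise transcripts of lysosomal genes, some of this machinery among them. In podocytes mTORC1 is known to be needed for normal size and glomerular filtration, and its overactivity is known to cause glomerular disease.

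Levels are in FPKM, a read number divided by gene length and library depth, and values after ± are SDs over the 3 libraries of a group. Library totals derived from the table were 18062898 to 20010130 reads in the Tfeb siRNA group and 20143910 to 20610888 in the scrambled siRNA group. The targeted transcript was lower in every library labelled as knockdown. Tfeb had 0.639, 0.714 and 0.822 FPKM in Tfeb siRNA libraries 1, 2 and 3 and 1.80, 2.05 and 2.27 FPKM in the scrambled libraries, leaving 35.5% of the scrambled mean (limma log2 fold change -1.05, SE 0.13, adjusted p = 0.00148; exact two-sided permutation p = 0.1, the smallest that 3 against 3 libraries allow). Of 12 podocyte markers 7 had a mean of 1 FPKM or more, but the slit diaphragm gene Nphs1 stayed at or below 0.0895 FPKM after Tfeb siRNA and at or below 0.268 FPKM in scrambled controls. The podocyte list summed to 463 to 469 FPKM after Tfeb siRNA and to 465 to 489 FPKM in scrambled controls. Endothelial markers summed to at most 0.554 FPKM in any library, with Emcn at 0, and tubular markers to 180 to 217 FPKM after Tfeb siRNA and 174 to 226 FPKM in scrambled controls, mostly from Aqp1 and Lrp2, with Umod at 0. Mesangial markers summed to 30.8 to 33.3 FPKM after Tfeb siRNA and 32.3 to 34.7 FPKM in scrambled controls, nearly all from Pdgfrb, with Gata5 at 0. Immune markers summed to 2.23 to 2.39 FPKM after Tfeb siRNA and 4.13 to 4.43 FPKM in scrambled controls, mostly from Csf1r, with Cd3e at 0. Keratinocyte markers summed to 5.00 to 5.34 FPKM after Tfeb siRNA and 4.60 to 5.73 FPKM in scrambled controls. The part of these other markers in the changes below was not tested. In bulk RNA, a change in the makeup of the culture and a change of RNA per cell cannot be told apart.

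All 38 members were transcribed at a mean of 1 FPKM or more and were tested, and for most of them the group means lay close together. After Tfeb siRNA 3 members rose and 6 fell at a limma adjusted p below 0.05, over all 12257 tested genes, and 29 did not pass. Of members 7.89% were called higher and 15.8% lower, where 16.9% and 16.4% of all tested genes were. The counts per complex given below cover few genes each and are to be read beside these shares of all tested genes. The 3 that rose were Lamtor5, Lamtor1 and Tsc1. Those that fell were Castor1, Depdc5, Sec13, Deptor, Rictor and Lamtor2. Without Castor1 and Castor2, which carry older names in the table, 3 of 36 rose and 5 fell. The groups did not overlap for 15 of the 38 members (39.5%) and for 48.7% of all tested genes. The median log2 fold change was -0.05 over the members and 0.02 over all tested genes. In TPM units these medians were -0.08 over the members and -0.01 over all tested genes, and scaled by total reads they were again -0.08 over the members and -0.01 over all tested genes. On the log2(FPKM + 0.5) scale 2 of the 38 members, Lamtor5 and Castor1, passed an absolute log2 fold change of 0.5. Of the 12257 tested genes 1520 did. With limma-voom 3 members passed it, Castor1 (-0.67), Depdc5 (-0.60) and Lamtor5 (0.57), and 1918 of the 12257 tested genes did. For 31 of the 38 the group means differed by under 20%, a count that was not taken over all tested genes. Lamtor5, Lamtor1, Castor1, Depdc5 and Sec13 kept their call under each of the 13 alternative analyses. With the replicate number as a block the counts were 4 higher and 7 lower, where 20.7% and 19.5% of all tested genes were called higher and lower.

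**Figure D1:**
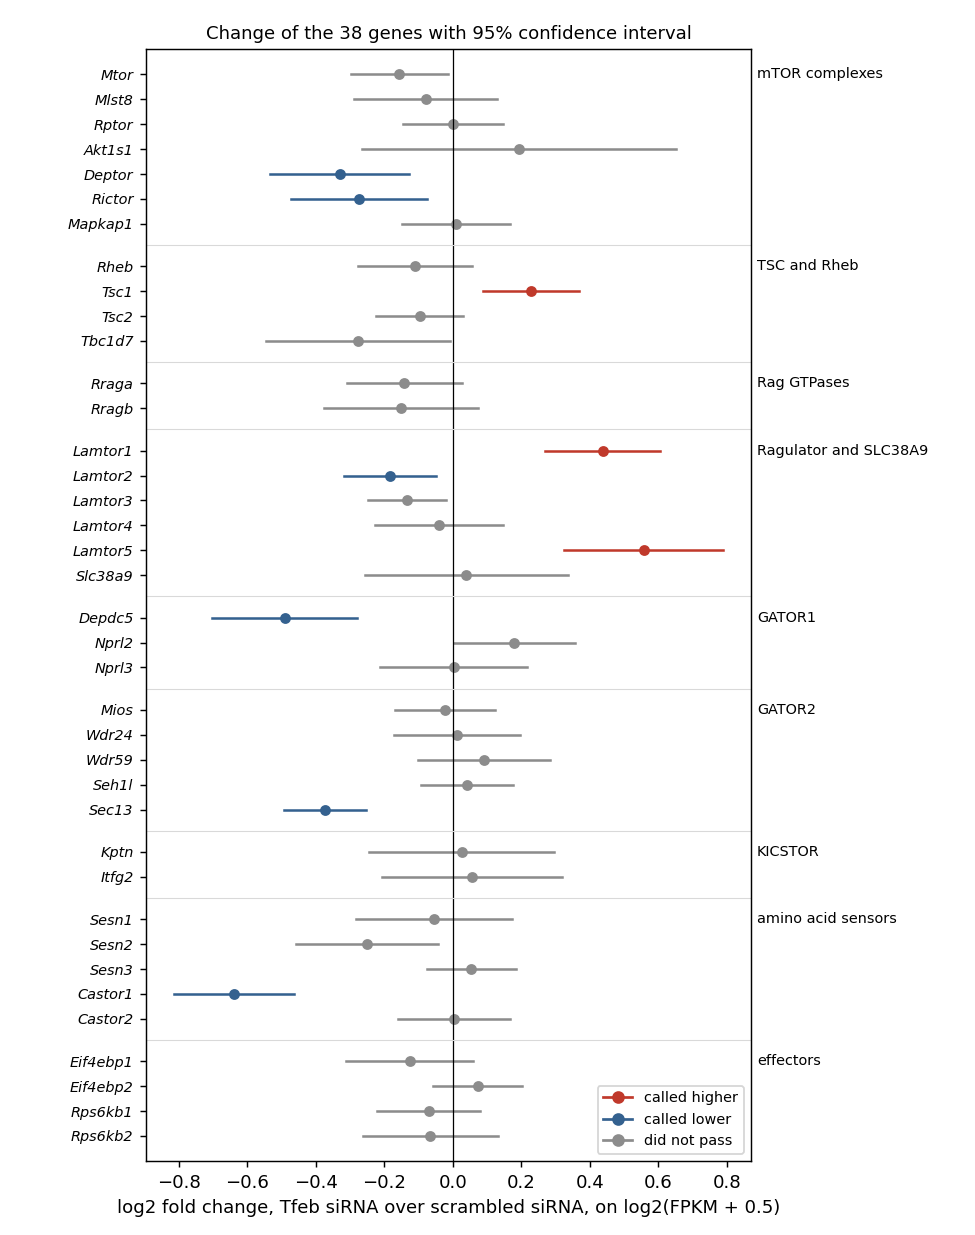
Log2 fold change of each of the 38 genes, Tfeb siRNA over scrambled siRNA on the log2(FPKM + 0.5) scale, with its 95% confidence interval from limma (3 libraries per group), ordered by complex. Red marks the 3 genes called higher, blue the 6 called lower and grey the 29 that did not pass; most intervals lie close to 0, and Lamtor5 (0.56) and Castor1 (-0.64) lie farthest out.

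The promoters of the members were searched for the core of the motif that TFEB is known to bind, because the siRNA was aimed at this factor. Windows of 250 bases before to 50 bases after the transcription start were available from RefSeq (GRCm38.p6) for 32 members. CACGTG, which reads alike on both strands, lay in the windows of 5 of the 32 members (15.6%), against 12.1% of 8495 tested genes and 8.09% of all 27025 genes of that table. The longer form TCACGTG, on either strand and always containing CACGTG, lay in 4 of the 32 (12.5%), against 7.35% of those tested genes and 4.29% of the whole table. The 5 windows are shown from 150 bases before to 10 bases after the start, 5′ to 3′ on the strand of the gene, with CACGTG in capitals, to show where the motif lies in each.
Lamtor1 (chr7:101905687-101905846, plus strand): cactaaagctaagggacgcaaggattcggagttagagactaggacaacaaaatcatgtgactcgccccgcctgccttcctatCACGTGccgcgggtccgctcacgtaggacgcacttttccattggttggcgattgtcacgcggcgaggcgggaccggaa
Lamtor4 (chr5:138255332-138255491, plus strand): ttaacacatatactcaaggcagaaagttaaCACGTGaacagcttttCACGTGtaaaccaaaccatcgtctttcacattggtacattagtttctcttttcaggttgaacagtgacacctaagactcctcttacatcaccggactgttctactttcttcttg
Rragb (chrX:153139808-153139967, plus strand): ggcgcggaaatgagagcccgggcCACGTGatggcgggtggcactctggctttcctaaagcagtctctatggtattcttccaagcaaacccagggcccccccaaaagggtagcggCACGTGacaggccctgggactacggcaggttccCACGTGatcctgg
Rheb (chr5:24842352-24842511, minus strand): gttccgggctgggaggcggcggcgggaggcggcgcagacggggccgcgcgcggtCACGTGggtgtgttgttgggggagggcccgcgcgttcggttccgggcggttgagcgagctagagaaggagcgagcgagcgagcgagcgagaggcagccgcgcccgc
Tbc1d7 (chr13:43171492-43171651, minus strand): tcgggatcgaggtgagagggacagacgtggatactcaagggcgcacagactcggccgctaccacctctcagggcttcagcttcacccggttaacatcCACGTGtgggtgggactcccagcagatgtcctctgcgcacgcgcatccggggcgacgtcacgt
Lamtor1 carries 1 copy at position -68 from its start, and it was called higher after Tfeb siRNA. Lamtor4 carries 2 copies, at positions -120 and -104, and Rragb carries 3, at -127, -36 and -3. Rheb has 1 copy at -96, and Tbc1d7 has 1 at -53, which is not part of TCACGTG. Lamtor4, Rragb, Rheb and Tbc1d7 did not pass the test. Lamtor5, Castor1, Depdc5, Sec13, Lamtor2, Rictor and Tsc1, each called higher or lower, hold no CACGTG in these windows, and no window was given for Deptor. The starts used for Lamtor1 and Rragb lie before the gene starts of the deposited table (101905904 and 153139981). The stretch shown for Rheb, on the minus strand, lies inside the gene span of that table, which ends at 24842624. These windows thus need not be the promoters used in these cells. A match describes letters only.

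In Ragulator, the lysosomal anchor of the Rag GTPases, 2 subunits rose, 1 fell and 2 did not pass. Lamtor5 (chromosome 3, 107278858 to 107284082, plus strand), a subunit of a roadblock pair, had 25.1, 27.3 and 32.0 FPKM in Tfeb siRNA libraries 1, 2 and 3 and 19.7, 19.8 and 17.3 FPKM in the scrambled libraries. All Tfeb siRNA libraries lay above all scrambled ones, and the mean was 1.49-fold higher (28.1 ± 3.50 FPKM after Tfeb siRNA and 18.9 ± 1.43 FPKM in scrambled controls, SD, n = 3 each; limma log2 fold change 0.56, SE 0.10, adjusted p = 0.00588). Lamtor1 (chromosome 7, 101905904 to 101926675, plus strand), the lipid-anchored subunit that wraps the others and ties them to the lysosome, had 13.0, 12.9 and 13.0 FPKM after Tfeb siRNA and 9.79, 10.1 and 8.49 FPKM in scrambled controls. The Tfeb siRNA libraries were nearly level, and the groups did not overlap (log2 fold change 0.44, SE 0.07, limma adjusted p = 0.00447). Lamtor2, which pairs with Lamtor3 in a scaffold also known to bind MEK1, stood lower, at 29.0, 27.9 and 28.7 FPKM after Tfeb siRNA and 34.1, 30.4 and 33.0 FPKM in scrambled controls. Its groups did not overlap, and the change was small (log2 fold change -0.18, SE 0.06, limma adjusted p = 0.0439).

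The call of Lamtor2 was lost without Tfeb siRNA replicate 1, 2 or 3 (adjusted p = 0.0810, 0.115 and 0.0965) and without scrambled siRNA replicate 1 or 3 (0.110 and 0.128), with no filter on low values (0.0715) and with limma-voom (0.0660). Lamtor3 had 11.0, 10.4 and 10.5 FPKM after Tfeb siRNA and 11.7 FPKM in each scrambled library, and it did not pass (log2 fold change -0.13, 95% interval -0.25 to -0.02, limma adjusted p = 0.0735; called lower with scaling by total reads, 0.0428). Lamtor4, the partner of Lamtor5 in its roadblock pair, had 13.4, 11.4 and 14.1 FPKM after Tfeb siRNA and 13.4, 13.4 and 13.1 FPKM in scrambled controls, with overlapping groups (95% interval of the log2 fold change -0.23 to 0.15). Slc38a9, the arginine-sensing lysosomal transporter that signals through Ragulator, was the lowest of all members, at 1.18 ± 0.124 FPKM after Tfeb siRNA and 1.14 ± 0.0925 FPKM in scrambled controls (95% interval -0.26 to 0.34).

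In the annotation Lamtor1 and Lamtor5 share sequence with other genes, and how the authors' counting placed such reads is not known here. Of the 50-base words of Lamtor1 transcripts 25.6% recur in other genes, and 18.7% of its exon bases overlap Lrrc51, a gene on the opposite strand with 3.71 ± 0.0879 FPKM after Tfeb siRNA and 3.88 ± 0.285 FPKM in scrambled controls (limma adjusted p = 0.600). Gm5510, which also shares words with Lamtor1, was called higher as well, at 12.3 ± 0.584 FPKM after Tfeb siRNA, against 9.99 ± 0.840 FPKM in scrambled controls (limma adjusted p = 0.0209). Without knowledge of strand in the counting, reads of Lamtor1 and Lrrc51 cannot be told apart where they overlap. For Lamtor5 14.5% of words recur, in Gm15190 and Gm13537, which together held 8 reads after Tfeb siRNA and 15 in scrambled controls. How far shared words bear on either change was not tested.

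**Figure D2:**
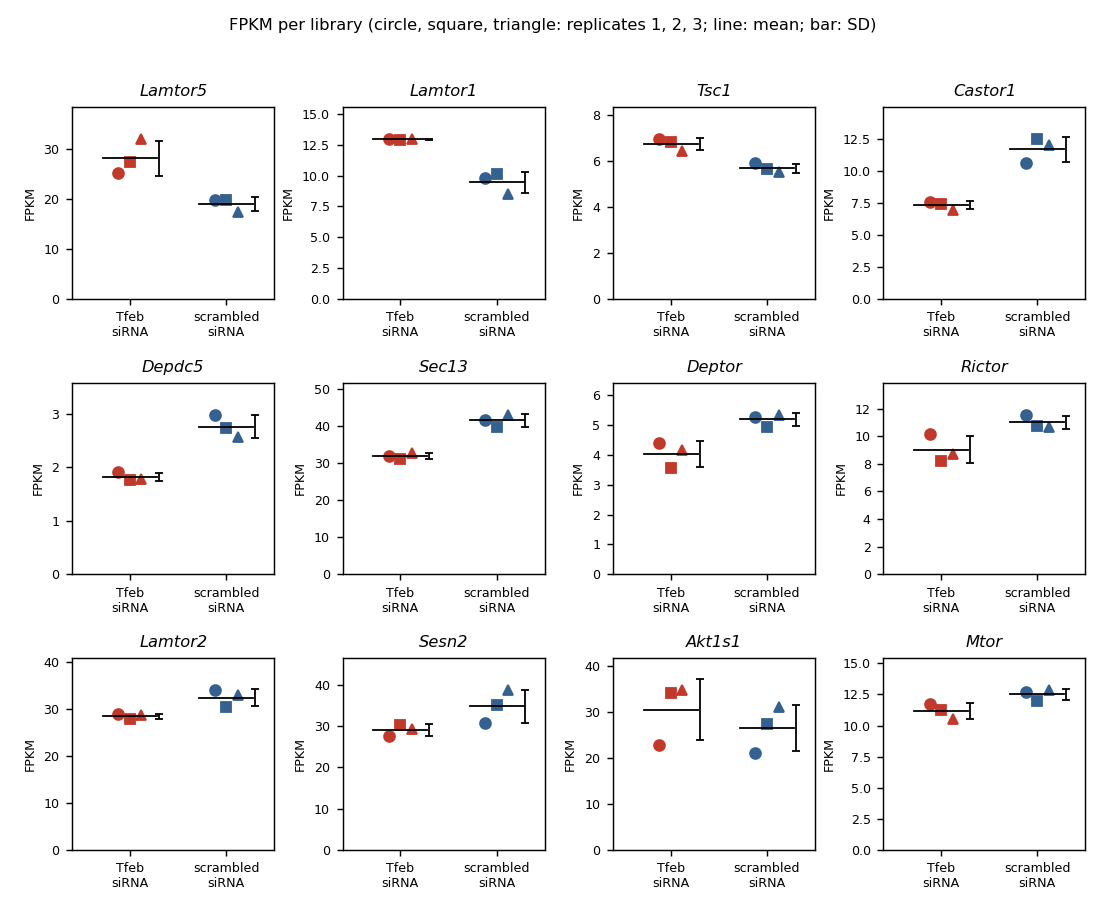
FPKM of 12 genes in each of the 6 libraries, with Tfeb siRNA at the left of each panel and scrambled siRNA at the right; symbols are replicates, lines are means and bars are SD (n = 3). The groups separate for the 9 called genes and for Sesn2 and Mtor, which did not pass, while Akt1s1 spreads from 21.1 to 34.8 FPKM with replicate 1 lowest in both groups. The panels were picked with all called genes among them; groups did not overlap for 39.5% of the 38 members and for 48.7% of all tested genes.

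The Rag GTPases, which carry the amino acid signal to mTORC1, did not pass the test. Rraga had 57.0, 57.9 and 60.2 FPKM after Tfeb siRNA and 58.4, 66.3 and 69.2 FPKM in scrambled controls, with 1 scrambled library inside the range of the Tfeb siRNA libraries (log2 fold change -0.14, 95% interval -0.31 to 0.03, limma adjusted p = 0.166). Without scrambled siRNA replicate 1 it was called lower (adjusted p = 0.0339). Rragb had 2.30, 2.27 and 1.95 FPKM after Tfeb siRNA and 2.47, 2.31 and 2.63 FPKM in scrambled controls, from 282 reads after Tfeb siRNA and 348 in scrambled controls (95% interval of the log2 fold change -0.38 to 0.07). No Rragb library of the Tfeb siRNA group reached the scrambled range. Rraga supplied 96.4% ± 0.401 of the summed FPKM of the pair after Tfeb siRNA and 96.3% ± 0.342 in scrambled controls (exact permutation p = 0.7, adjusted p = 0.875 over 5 families). Rragc, the partner that pairs with either of them and is no member, stood at 50.6 ± 3.05 FPKM after Tfeb siRNA and 47.9 ± 1.17 FPKM in scrambled controls (limma adjusted p = 0.343). Rragd, a known TFEB target, lay under the level tested, with 73 reads after Tfeb siRNA and 119 in scrambled controls. Its groups overlapped, at 0.216, 0.248 and 0.270 FPKM after Tfeb siRNA and 0.520, 0.383 and 0.203 FPKM in scrambled controls.

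In GATOR1, the brake on RagA and RagB, 1 of 3 subunits fell and the other 2 did not pass. Depdc5 (chromosome 5, 32863701 to 32994236, plus strand), known from mutations in focal epilepsy, had 1.91, 1.77 and 1.78 FPKM after Tfeb siRNA and 2.99, 2.73 and 2.57 FPKM in scrambled controls. No Tfeb siRNA library reached the lowest scrambled one, and the scrambled mean was 1.52-fold that of Tfeb siRNA (1.82 ± 0.0760 FPKM after Tfeb siRNA and 2.77 ± 0.212 FPKM in scrambled controls; log2 fold change -0.49, SE 0.09, limma adjusted p = 0.00661), from 1231 reads after Tfeb siRNA and 2033 in scrambled controls. Nprl2, its catalytic subunit, had 5.01, 5.77 and 4.96 FPKM after Tfeb siRNA and 4.74, 4.42 and 4.54 FPKM in scrambled controls, all Tfeb siRNA libraries being above all scrambled ones, but did not pass (log2 fold change 0.18, limma adjusted p = 0.110). Nprl3, the remaining subunit, had 4.49 ± 0.475 FPKM after Tfeb siRNA and 4.48 ± 0.292 FPKM in scrambled controls (95% interval -0.21 to 0.22). Of its exon bases 17.7% overlap Mpg on the opposite strand, at 2.83 ± 0.412 FPKM after Tfeb siRNA and 3.12 ± 0.192 FPKM in scrambled controls.

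In GATOR2, which restrains GATOR1, 1 of 5 subunits fell and 4 did not pass. Sec13 (chromosome 6, 113728062 to 113740743, minus strand), a protein shared with the nuclear pore and with COPII coats, had 31.9, 31.1 and 32.7 FPKM after Tfeb siRNA and 41.7, 39.8 and 43.1 FPKM in scrambled controls. The groups did not overlap, and the scrambled mean was 1.30-fold that of Tfeb siRNA (log2 fold change -0.37, SE 0.05, limma adjusted p = 0.00221). Seh1l, the other nuclear pore protein of the complex, had 25.8 ± 1.49 FPKM after Tfeb siRNA and 25.1 ± 0.497 FPKM in scrambled controls, with overlapping groups (95% interval -0.09 to 0.17). Mios, Wdr24 and Wdr59 were low, and each overlapped between groups. Mios had 3.92 ± 0.0923 FPKM after Tfeb siRNA and 3.99 ± 0.0893 FPKM in scrambled controls. Wdr24, part of the catalytic ring finger unit, had 4.80 ± 0.285 FPKM after Tfeb siRNA and 4.76 ± 0.365 FPKM in scrambled controls. Wdr59 had 3.39 ± 0.306 FPKM after Tfeb siRNA and 3.15 ± 0.0710 FPKM in scrambled controls. Per length, Sec13 and Seh1l thus stood well above the other 3 subunits in both groups. KICSTOR, which tethers GATOR1 to the lysosome, was represented by Kptn and Itfg2, and neither passed. Kptn had 2.13 ± 0.216 FPKM after Tfeb siRNA and 2.09 ± 0.275 FPKM in scrambled controls (95% interval -0.25 to 0.30), and Itfg2 had 2.74 ± 0.431 FPKM after Tfeb siRNA and 2.60 ± 0.0999 FPKM in scrambled controls (95% interval -0.21 to 0.32).

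**Figure D3:**
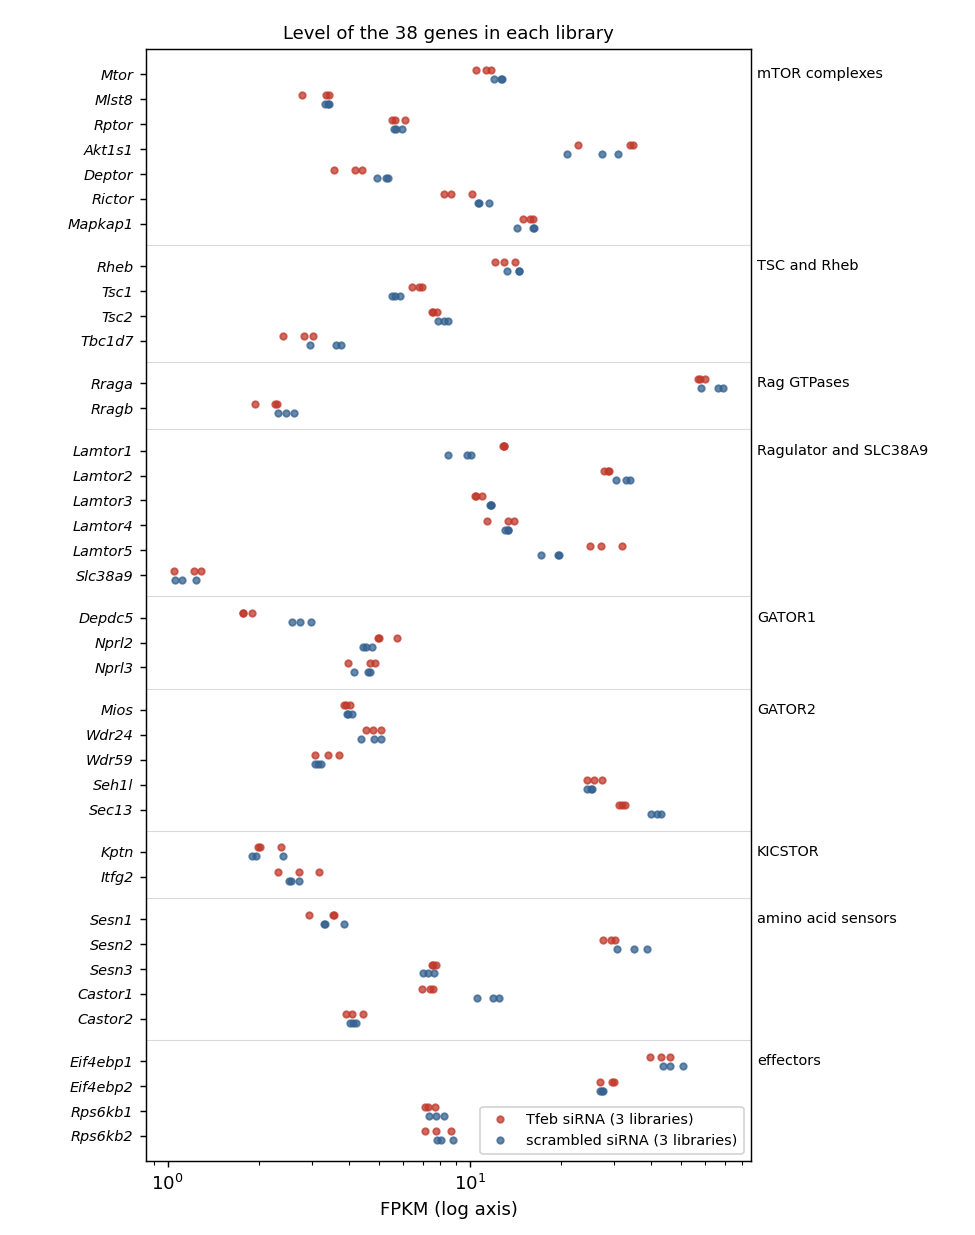
FPKM of each of the 38 genes in the 6 libraries on a log axis, with Tfeb siRNA drawn above scrambled siRNA in each row and rows ordered by complex. Levels run from about 1 FPKM for Slc38a9 to group means of 58.4 FPKM after Tfeb siRNA and 64.6 FPKM in scrambled controls for Rraga, a range far wider than any difference between the groups.

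Castor1, the cytosolic arginine sensor, had the largest log2 fold change in size of the 38 members. It is listed as Gatsl3 (chromosome 11, 4218225 to 4222409, plus strand) and had 7.58, 7.37 and 6.94 FPKM in Tfeb siRNA libraries 1, 2 and 3 and 10.6, 12.5 and 12.0 FPKM in the scrambled libraries. The highest Tfeb siRNA library lay below the lowest scrambled one, and the scrambled mean was 1.60-fold that of Tfeb siRNA (7.30 ± 0.329 FPKM after Tfeb siRNA and 11.7 ± 0.978 FPKM in scrambled controls; log2 fold change -0.64, SE 0.07, limma adjusted p = 0.00122), from 660 reads after Tfeb siRNA and 1147 in scrambled controls. None of its 50-base words recurred in another gene (0%). Castor2, its paralog, listed as Gatsl2, had 4.43, 4.07 and 3.90 FPKM after Tfeb siRNA and 4.20, 4.12 and 4.02 FPKM in scrambled controls, with overlapping groups (95% interval of the log2 fold change -0.16 to 0.17). The share of Castor1 in the summed FPKM of the pair was 63.1%, 64.4% and 64.0% after Tfeb siRNA and 71.6%, 75.1% and 74.9% in scrambled controls. These shares did not overlap (difference -10.0 percentage points, exact two-sided permutation p = 0.1, the smallest possible; adjusted p = 0.25 over the 5 families compared).

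Among the sestrins, stress-induced proteins that bind GATOR2, Sesn2 stood highest per length, above Sesn1 and Sesn3. Reads of Sesn2 (length 3475 bases) numbered 5830 after Tfeb siRNA and 7569 in scrambled controls. Those of Sesn3 (length 15269 bases) numbered 6674 after Tfeb siRNA and 6963 in scrambled controls, so the ranking of Sesn2 over Sesn3 depends on these lengths. Sesn2, a leucine sensor, had 27.7, 30.4 and 29.3 FPKM after Tfeb siRNA and 30.8, 35.1 and 38.8 FPKM in scrambled controls. The groups did not overlap, but the scrambled libraries spread widely and the test was not passed (log2 fold change -0.25, SE 0.09, limma adjusted p = 0.0657). With the replicate number as a block its adjusted p was 0.0239, and without scrambled siRNA replicate 1 it was 0.0172. It was also called lower with limma-voom (0.0294), in TPM units (0.0292) and with scaling by total reads (0.0396). Sesn1, known as a p53 target, had 3.34 ± 0.343 FPKM after Tfeb siRNA and 3.48 ± 0.294 FPKM in scrambled controls, and Sesn3, known as a FOXO target, had 7.60 ± 0.114 FPKM after Tfeb siRNA and 7.30 ± 0.303 FPKM in scrambled controls. Both overlapped between groups (95% intervals -0.28 to 0.17 and -0.08 to 0.18). Sesn2 made up 72.7% ± 0.474 of the summed sestrin FPKM after Tfeb siRNA and 76.3% ± 1.97 in scrambled controls (exact permutation p = 0.1, adjusted p = 0.25 over the 5 families).

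Of the TSC complex, the inhibitor of Rheb, and Rheb itself, 1 gene rose and 3 did not pass. Tsc1, the scaffold also called hamartin, had 6.97, 6.82 and 6.46 FPKM after Tfeb siRNA and 5.90, 5.64 and 5.52 FPKM in scrambled controls. Its groups did not overlap, and it was called higher by 1.19-fold (log2 fold change 0.23, SE 0.06, limma adjusted p = 0.0240). That call was lost without Tfeb siRNA replicate 1 or 2 (adjusted p = 0.0718 and 0.0693), without scrambled siRNA replicate 2 or 3 (0.0692 and 0.0829), in TPM units (0.0819) and with scaling by total reads (0.0547). Tsc2, the GTPase-activating subunit tuberin, had 7.77, 7.48 and 7.57 FPKM after Tfeb siRNA and 7.84, 8.45 and 8.25 FPKM in scrambled controls, just short of overlap, and did not pass (log2 fold change -0.10, 95% interval -0.23 to 0.03). Of its exon bases 7.20% overlap Pkd1 on the opposite strand. Tbc1d7, the stabilizing subunit, had 2.40, 3.02 and 2.83 FPKM after Tfeb siRNA and 3.75, 2.97 and 3.61 FPKM in scrambled controls, with overlapping groups (log2 fold change -0.28, limma adjusted p = 0.102). Rheb had 12.1, 13.0 and 14.1 FPKM after Tfeb siRNA and 13.3, 14.5 and 14.5 FPKM in scrambled controls, also with overlap (95% interval -0.28 to 0.05).

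Of 7 subunits of the mTOR complexes 2 fell and 5 did not pass. Mtor, the kinase shared by both complexes, had 11.7, 11.3 and 10.5 FPKM after Tfeb siRNA and 12.7, 12.0 and 12.8 FPKM in scrambled controls. Each Tfeb siRNA library lay below each scrambled one, yet the difference did not pass (log2 fold change -0.16, 95% interval -0.30 to -0.02, limma adjusted p = 0.0855). Rptor, the substrate-binding subunit of mTORC1, had 5.53, 6.10 and 5.68 FPKM after Tfeb siRNA and 5.64, 5.96 and 5.71 FPKM in scrambled controls, values that interleave (95% interval -0.14 to 0.15). Mlst8, a subunit of both complexes, had 3.18 ± 0.348 FPKM after Tfeb siRNA and 3.38 ± 0.0414 FPKM in scrambled controls, and 22.5% of its exon bases overlap Bricd5 on the opposite strand, which had no reads in any library.

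Deptor, an inhibitor of mTOR in both complexes, was lower after Tfeb siRNA, with 4.39, 3.56 and 4.18 FPKM, against 5.28, 4.95 and 5.36 FPKM in scrambled controls (log2 fold change -0.33, SE 0.09, limma adjusted p = 0.0244). The groups did not overlap, but the call was lost without Tfeb siRNA replicate 2 (adjusted p = 0.0546) and without scrambled siRNA replicate 1 or 3 (0.0623 and 0.0796), and with no filter on low values (0.0631). Rictor, the defining subunit of mTORC2, the complex that phosphorylates AKT, was lower as well, at 10.2, 8.24 and 8.70 FPKM after Tfeb siRNA and 11.6, 10.8 and 10.7 FPKM in scrambled controls (log2 fold change -0.27, SE 0.08, limma adjusted p = 0.0423). Its groups did not overlap, and its call was lost without Tfeb siRNA replicate 2 or 3 (adjusted p = 0.119 and 0.115) and without scrambled siRNA replicate 1, 2 or 3 (0.108, 0.0820 and 0.0828), and with no filter on low values (0.0968). Mapkap1, which encodes the mTORC2 subunit SIN1, had 15.7 ± 0.626 FPKM after Tfeb siRNA and 15.7 ± 1.10 FPKM in scrambled controls (95% interval -0.15 to 0.17).

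Akt1s1, which encodes PRAS40, an AKT-regulated inhibitor of mTORC1, spread widely between replicates. It had 22.8, 34.0 and 34.8 FPKM after Tfeb siRNA and 21.1, 27.4 and 31.1 FPKM in scrambled controls, with replicate 1 far below replicates 2 and 3 in both. Without a block it did not pass (log2 fold change 0.19, SE 0.19, limma adjusted p = 0.481), and with the replicate number as a block it was called higher (adjusted p = 0.0379). The same ordering was found elsewhere: replicate 1 was the lowest in both groups for 11 of the 38 members (28.9%), among them Rraga, Rheb, Sesn2 and Eif4ebp1, and for 20.4% of all tested genes. Replicate 1 was the highest in both groups for 7 members (18.4%), Rictor, Tsc1, Lamtor2 and Depdc5 among them, and for 19.4% of all tested genes.

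The 4 members listed as direct substrates of mTORC1, Eif4ebp1, Eif4ebp2, Rps6kb1 and Rps6kb2, did not pass the test. Substrates outside the member list are not covered by this statement. Eif4ebp1, the translation repressor that mTORC1 releases from eIF4E, had 39.6, 43.0 and 46.0 FPKM after Tfeb siRNA and 43.7, 46.0 and 50.8 FPKM in scrambled controls, with overlapping groups (log2 fold change -0.13, 95% interval -0.31 to 0.06, limma adjusted p = 0.259). It was lower after Tfeb siRNA in each of the 3 same-numbered pairs, and with the replicate number as a block its limma adjusted p was 0.0533. Its paralog Eif4ebp2 had 29.5, 30.0 and 27.0 FPKM after Tfeb siRNA and 27.7, 27.4 and 27.1 FPKM in scrambled controls (95% interval -0.06 to 0.20). Of the S6 kinases, which phosphorylate ribosomal protein S6, Rps6kb1 had 7.66, 7.11 and 7.29 FPKM after Tfeb siRNA and 8.23, 7.72 and 7.31 FPKM in scrambled controls (95% interval -0.22 to 0.08). Rps6kb2 had 7.12, 7.72 and 8.66 FPKM after Tfeb siRNA and 7.77, 8.78 and 8.06 FPKM in scrambled controls (95% interval -0.26 to 0.13), and 23.7% of its exon bases overlap Ptprcap on the opposite strand, a gene with 6 reads after Tfeb siRNA and 36 in scrambled controls. Eif4ebp1 made up 59.7% ± 2.97 of the summed FPKM of the pair of repressors after Tfeb siRNA and 63.0% ± 2.01 in scrambled controls (exact permutation p = 0.3, adjusted p = 0.5 over the 5 families). This share was lower after Tfeb siRNA in 3 of 3 same-numbered pairs, by 3.96, 3.77 and 2.16 percentage points. An exact sign-flip test over the pairs gave p = 0.25, the smallest that 3 pairs allow, as it also did for the shares of Castor1 and Sesn2. Rps6kb1 made up 48.5% ± 3.09 of the S6 kinase pair after Tfeb siRNA and 48.6% ± 2.48 in scrambled controls (exact permutation p = 1, adjusted p = 1).

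**Figure D4:**
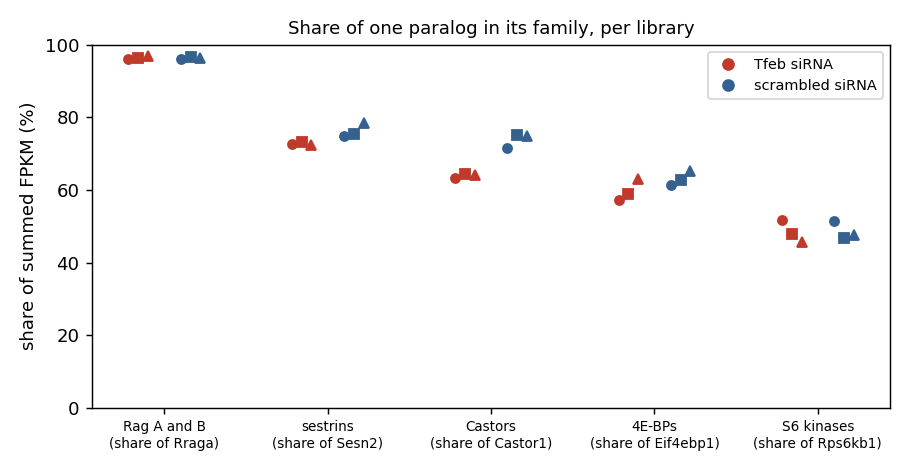
Share of 1 paralog in the summed FPKM of its family, in percent, for each library, with Tfeb siRNA (red) left of scrambled siRNA (blue) and symbols for replicates 1 to 3. Castor1 held 63.1% to 64.4% after Tfeb siRNA and 71.6% to 75.1% in scrambled controls; the shares of Rraga, Eif4ebp1 and Rps6kb1 overlap between the groups.

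Other genes of the pathway were taken from a list of 57, of which 56 were found and 53 tested. Of these 10 rose and 7 fell (18.9% and 13.2%), against 16.9% and 16.4% of all tested genes, and 36 did not pass; their median log2 fold change was 0.03. The 4 largest increases were in Prkaa1, Pik3r1, Sgk1 and Rhebl1. Prkaa1, the alpha1 catalytic subunit of the energy sensor AMPK, had 26.1, 24.8 and 24.4 FPKM after Tfeb siRNA and 14.5, 14.4 and 14.5 FPKM in scrambled controls (log2 fold change 0.77, SE 0.05, limma adjusted p = 0.000199). Pik3r1, the regulatory subunit p85 alpha of PI3-kinase, had 18.6 ± 0.365 FPKM after Tfeb siRNA and 10.7 ± 0.234 FPKM in scrambled controls (log2 fold change 0.77, limma adjusted p = 0.000198). Sgk1, a kinase activated by mTORC2, had 18.2 ± 2.37 FPKM after Tfeb siRNA and 11.0 ± 2.35 FPKM in scrambled controls (limma adjusted p = 0.0120), and Rhebl1, a relative of Rheb, had 3.37 ± 0.380 FPKM after Tfeb siRNA and 2.32 ± 0.0140 FPKM in scrambled controls (limma adjusted p = 0.0100).

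The largest decreases in that list were in Cab39, Akt2, Fnip1 and Ddit4l. Cab39, which encodes the scaffold MO25 of the AMPK-activating kinase LKB1, had 13.6, 13.9 and 13.4 FPKM after Tfeb siRNA and 21.9, 22.6 and 23.3 FPKM in scrambled controls (log2 fold change -0.71, SE 0.05, limma adjusted p = 0.000268). Akt2, a kinase that inhibits TSC2, had 6.71 ± 0.436 FPKM after Tfeb siRNA and 9.69 ± 0.549 FPKM in scrambled controls (limma adjusted p = 0.00240). Fnip1, a folliculin partner, had 11.2 ± 0.741 FPKM after Tfeb siRNA and 14.8 ± 0.476 FPKM in scrambled controls (limma adjusted p = 0.00455), and Ddit4l, a relative of the mTORC1 inhibitor REDD1, had 10.3 ± 0.217 FPKM after Tfeb siRNA and 13.5 ± 0.177 FPKM in scrambled controls (limma adjusted p = 0.00167). On the log2 scale Prkaa1, Pik3r1, Sgk1 and Cab39 lay farther from 0 than any of the 38 members.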

How the data were processed

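RNA was measured in 3 libraries of podocytes given Tfeb siRNA and 3 given scrambled siRNA, numbered in the sample titles. The authors deposited FPKM values with gene length, per the file headers, and the submitters' processing notes name mm10 as the build. The sources used here give no aligner, counter, annotation release or use of strand. Read numbers were recovered from FPKM times length, which came out whole for 100% of values in each library (tolerance 1e-06). Every column belonged to a sample of the series (0 others).

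Groups were compared with limma 3.58.1 (R 4.3.3) on log2(FPKM + 0.5) over 12257 genes averaging at least 1 FPKM, with a mean-variance trend, two-sided, and Benjamini-Hochberg adjustment over all of them; calls used an adjusted p below 0.05. Fold changes on this scale understate low genes. The same code was run on simulated counts without a replicate effect, which checks the code and not the calls made here. Alternatives were pseudocounts of 0.1 and 1, no filter, TPM, scaling by total reads, limma-voom on derived reads, a replicate block and leaving out each library.

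Residual correlations of same-numbered libraries were 0.382, 0.129 and 0.166. That of Tfeb siRNA library 2 with scrambled library 3 was 0.106, and that of 3 with 2 was 0.0996, close to the matched values. Pairs of unlike numbers that held a replicate 1 lay from -0.239 to -0.201. Residuals were taken from the mean of each group, so these negative values largely follow from the 0.382 and add little to it. Replicate 1 stood apart by that value of 0.382, while a pairing within replicates 2 and 3 was not shown. The titles only number samples, so the main fit was unpaired and the replicate block was an alternative. Nothing says that replicates were separate cultures, so the spread that p-values measure may be technical. Promoters came from RefSeq windows, overlaps and shared 50-base words from GENCODE M21; all 38 members were in GENCODE, 35 with the same span as in the deposited table.

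The members and lists were chosen with earlier results of these data known. All 38 members were named, Tfeb as a check, and of the other pathway genes the 4 called genes farthest above 0 and the 4 farthest below; Rragc and Rragd were added for their place beside the members, after their values were seen. The value of 1 podocyte marker is not reported here.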

Additional observations from a re-analysis of the deposited data

How the results depend on the processing

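The count of members called lower, 6 of 38, was 3 with no filter on low values and 3 to 5 when 1 library was left out. It was 3 without scrambled siRNA replicate 3 and 3 without Tfeb siRNA replicate 2; fewer libraries enter these fits. The count of other pathway genes called lower, 7, was 4 to 6 when 1 library was left out, and 4 without scrambled siRNA replicate 3, Tfeb siRNA replicate 2 or Tfeb siRNA replicate 3. With the replicate number as a block 4 members were higher and 7 lower, and Akt1s1 and Sesn2 were the calls it added (adjusted p = 0.0379 and 0.0239); it removed none. An exact paired sign-flip test of the paralog shares, added after seeing the data, gave p = 0.25 for Castor1, Sesn2 and Eif4ebp1, 0.75 for Rraga and 1 for Rps6kb1. Over 494 member results under alternatives 430 kept their direction and side of the threshold, 23 calls were lost, 8 were gained and 33 changed direction, all of them in members that did not pass. In TPM units log2 fold changes close to 0 were -0.028 for Rptor, -0.026 for Nprl3, -0.020 for Mapkap1, -0.015 for Wdr24 and -0.023 for Castor2. Scaled by total reads they were -0.029 for Rptor, -0.027 for Nprl3, -0.023 for Mapkap1, -0.017 for Wdr24, -0.025 for Castor2 and -0.00031 for Kptn. Leaving out 1 library gave ranges across 0 of -0.13 to 0.0015 for Mlst8, -0.037 to 0.027 for Rptor, -0.049 to 0.039 for Mapkap1, -0.10 to 0.044 for Lamtor4, -0.0052 to 0.10 for Slc38a9, -0.051 to 0.082 for Nprl3, -0.043 to 0.056 for Wdr24, -0.00068 to 0.081 for Seh1l, -0.041 to 0.11 for Kptn, -0.041 to 0.15 for Itfg2, -0.10 to 0.021 for Sesn1 and -0.041 to 0.041 for Castor2. The cause of these changes of sign was not tested. The share differences ran from -0.134 to 0.257 percentage points for Rraga and from -1.76 to 1.32 for Rps6kb1. Few reads lie behind Rragb (282 after Tfeb siRNA and 348 in scrambled controls) and Kptn (411 after Tfeb siRNA and 436 in scrambled controls).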
